A study of Mus musculus with 24 samples.

Results

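The 9 genes *Hal*, *Sds*, *Sdsl*, *Pck1*, *Hsd17b13*, *Aldh1b1*, *Pigr*, *Uroc1* and *Etnppl* were followed as a panel of periportal hepatocyte (HC) genes. They were taken by symbol from the 48820 entries of the count table of whole liver, and each symbol was found there. All 9 passed the expression filter in whole liver. Levels are given as CPM, the counts of a gene scaled to the size of its library. The question was whether periportal expression expands across the liver when pericentral genes fall, as they do in mice whose hepatic stellate cells (HSCs) lack the ligands BMP9 (gene *Gdf2*) and BMP10.

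Blood flows through the liver lobule from the portal vein and hepatic artery to the central vein, and HCs along this path divide their work. Periportal HCs, which meet blood rich in oxygen and nutrients, carry out much of the breakdown of amino acids, urea synthesis and gluconeogenesis. Pericentral HCs, which sit in a field of Wnt signals from endothelial cells (ECs) of the central vein, make glutamine and hold many cytochrome P450 enzymes. Wnt/beta-catenin signaling is known to switch on pericentral genes and to keep periportal genes low.

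The 6 liver libraries came from mice aged 12 weeks (strain C57BL/6 by the labels, C57BL/6J background by the study's methods), 3 *Gdf2*/*Bmp10* HSC-KO mice (both ligand genes floxed, and deleted by *Lrat*Cre in cells that express *Lrat*, mainly HSCs) and 3 control mice. The other 18 libraries were from sorted cells of mice aged 8 to 10 weeks. They comprised liver macrophages (CD45+Ly6C-F4/80+CD64+, called KCs here) and hepatic ECs (CD45-CD31+) of HSC-KO and control mice, and liver macrophages of *Smad4* cKO mice (*Smad4* floxed, *Vav1*Cre, which acts in blood cells) and their own floxed controls. Each of these groups had 3 libraries. The name KC stands here for the sorted gate only. For HSC-KO mice the study proposes that macrophages derived from monocytes took the place of embryonic KCs. The HSC-KO controls are called control in the sample titles, WT in the column names and littermates by the study, with no further genotype. Total counts were 73941995 to 104087482 in liver and 60911527 to 110879155 in sorted cells. In liver, *Gdf2* fell by 2.55 and *Bmp10* fell by 4.07 on the log2 scale (adjusted p = 0.013 and 0.0066 by the quasi-likelihood test of edgeR, with Benjamini-Hochberg (BH) adjustment over all tested genes). *Smad4* fell by 1.39 in *Smad4* cKO macrophages (adjusted p = 0.0023). Macrophage markers summed to 30634 to 32171 CPM in control KCs and 14753 to 16010 CPM in HSC-KO KCs, and to 31768 to 39610 and 15610 to 19807 CPM in *Smad4* control and cKO macrophages, and endothelial markers to at least 7269 CPM in every EC library. HSC-KO liver replicate 3 stood apart: it had 12 counts of *Xist* and 3536 of the Y-linked *Ddx3y*, whereas the other 5 liver libraries had 31392 to 54369 and 0. It was therefore the only male liver, and each member's liver result is given with and without it. In the column names, 3 mouse numbers occur with the same genotype in both the EC and the KC table. Libraries of both sexes occurred in each group of HSC-KO and control ECs and KCs, and all 6 libraries of the *Smad4* comparison had counts of Y-linked genes.

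In GENCODE vM21 (GRCm38), *Sds* (chr5:120476526-120483932, + strand) and its relative *Sdsl* (chr5:120458186-120472810, - strand) are neighbours 3715 bases apart. *Hsd17b13* lies on the same chromosome (chr5:103955440-103977410, - strand). *Etnppl* lies at chr3:130617448-130637521, *Hal* at chr10:93488768-93519304, *Uroc1* at chr6:90333284-90364551, *Pck1* at chr2:173153048-173159273, *Aldh1b1* at chr4:45799022-45804604 and *Pigr* at chr1:130826684-130852249, all on the + strand. Exons of *Sds* share 360 bases (21.25% of its exon length) with the oppositely oriented *Plbd2* and 141 bases (8.32%) with *Gm15690*. Whether the counting used the strand is not given in the sources used here, so reads of these stretches could belong to either gene. *Plbd2* itself had control and HSC-KO means of 88.8 ± 4.56 and 112 ± 7.46 CPM (SD, n = 3), with an edgeR BH-adjusted p of 0.234.

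The sequence just upstream of the start site was read for the members from RefSeq (GRCm38.p6), where 7 of the 9 had an entry. *Sds* and *Sdsl* had none. These 250-base windows are shown for *Etnppl*, *Hal*, *Hsd17b13* and *Aldh1b1*, 4 members with separate liver groups, and for *Pck1*, whose upstream region is a textbook case of hormone control. Capitals mark any match, on either strand, to CTTTGA (the core bound by TCF/LEF factors, which carry the Wnt signal), TGACG (part of the site of the cAMP response element), TGTTCT (part of the site of the glucocorticoid receptor), GTTAAT (part of the site of HNF1) or TATAAA.
*Etnppl* (chr3:130617198-130617447, + strand): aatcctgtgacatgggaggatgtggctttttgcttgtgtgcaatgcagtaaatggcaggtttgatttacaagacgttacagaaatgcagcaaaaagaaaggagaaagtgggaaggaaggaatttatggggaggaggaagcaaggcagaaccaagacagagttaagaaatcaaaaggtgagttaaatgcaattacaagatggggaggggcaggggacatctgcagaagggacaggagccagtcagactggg
*Hal* (chr10:93488518-93488767, + strand): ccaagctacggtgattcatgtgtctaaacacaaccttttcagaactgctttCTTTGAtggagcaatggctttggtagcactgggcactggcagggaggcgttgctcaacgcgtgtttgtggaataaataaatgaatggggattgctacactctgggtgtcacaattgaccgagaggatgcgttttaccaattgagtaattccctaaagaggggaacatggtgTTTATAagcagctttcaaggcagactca
*Hsd17b13* (chr5:103977389-103977638, - strand): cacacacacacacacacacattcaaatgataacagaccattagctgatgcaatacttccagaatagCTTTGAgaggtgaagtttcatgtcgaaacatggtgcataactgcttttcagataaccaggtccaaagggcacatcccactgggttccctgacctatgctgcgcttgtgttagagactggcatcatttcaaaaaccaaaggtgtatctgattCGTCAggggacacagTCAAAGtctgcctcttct
*Aldh1b1* (chr4:45798772-45799021, + strand): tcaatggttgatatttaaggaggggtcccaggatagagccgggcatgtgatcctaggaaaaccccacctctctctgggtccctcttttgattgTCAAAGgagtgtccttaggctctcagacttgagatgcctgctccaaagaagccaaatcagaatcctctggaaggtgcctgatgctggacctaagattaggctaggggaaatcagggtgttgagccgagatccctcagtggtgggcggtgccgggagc
*Pck1* (chr2:173152823-173153072, + strand): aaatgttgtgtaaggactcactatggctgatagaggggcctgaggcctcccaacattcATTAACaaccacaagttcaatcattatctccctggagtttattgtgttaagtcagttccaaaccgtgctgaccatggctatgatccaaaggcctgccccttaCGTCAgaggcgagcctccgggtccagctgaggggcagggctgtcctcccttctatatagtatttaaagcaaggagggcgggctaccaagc

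CTTTGA was present in 4 of the 8 windows of members (*Hal*, *Hsd17b13*, *Aldh1b1* and *Uroc1*) and in 13.8% of 32851 windows of the same length in the table. *Hsd17b13* held it 2 times, at -184 and -18 from its start. The *Pck1* window held TGACG at -90, a motif found in 17.8% of all windows, and GTTAAT at -192, found in 6.43%. The *Hal* window also held TATAAA at -28 (12.4% of all windows). *Pigr* held TGTTCT at -114 (16.1% of all windows). *Etnppl* has a second listed start, whose window ended in GTTAAT, and none of the 5 motifs lay in the window printed here. A match is a run of letters and was not tied to binding by any measurement here.

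In whole liver, *Etnppl* was the 1 member of 9 called higher in *Gdf2*/*Bmp10* HSC-KO mice, and none was called lower. A gene was called when its BH-adjusted p over 17118 genes was below 0.05 by edgeR and its log2 fold change exceeded 1 in size, and 1.03% of all tested genes were called higher and 1.45% lower. *Etnppl* and *Hsd17b13* passed the adjusted p alone, as did 1.24% of all genes in that direction. At an unadjusted p below 0.05, 6 members were higher (all genes, 5.92%). In 5 members (*Hal*, *Sdsl*, *Hsd17b13*, *Aldh1b1* and *Etnppl*) every HSC-KO library lay above every control library, which held for 8.8% of all genes. The log2 fold change was positive in 8 of 9 members (all genes, 48.6%). Its median was 0.95 over the 9 members and -0.01 over all genes tested. In bulk tissue, fewer cells of a type and less RNA per cell cannot be told apart.

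**Figure D1:**
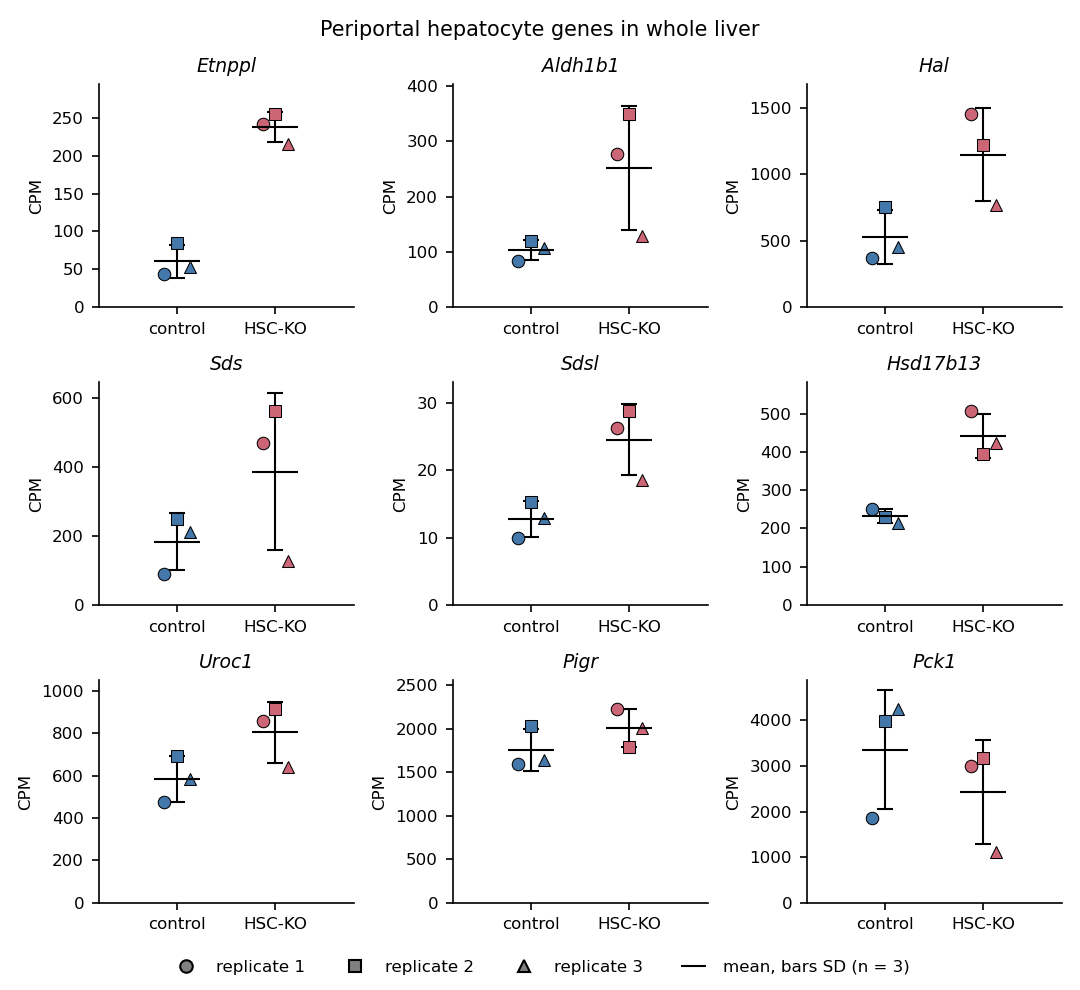
Level of each of the 9 periportal genes in the 6 whole-liver libraries, in CPM (y axis from 0). Points are libraries, with the replicate given by the symbol, and the line with bars is the mean ± SD (n = 3). The HSC-KO points of *Etnppl*, 216.0 to 256 CPM, lie above all control points, whereas those of *Pck1* overlap them.

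Histidine breakdown opens with *Hal* (histidine ammonia-lyase, the first enzyme), followed by *Uroc1* (urocanase). *Hal* was at 369, 754 and 455 CPM in control livers and 1457, 1219 and 766 CPM in HSC-KO livers. The groups were separate, but the lowest HSC-KO value, that of replicate 3, lay just above the highest control value. The log2 fold change was 1.12 (SE 0.32, 95% interval 0.37 to 1.88, edgeR BH-adjusted p = 0.157), and without replicate 3 it was 1.35 (adjusted p = 0.066). DESeq2, which called 3 of the 9 members and 1.91% of all genes higher, called it (adjusted p = 0.0035). With *Xist* as a covariate, edgeR called *Hal* too (log2 fold change 1.38, adjusted p = 0.049), in a fit that called 4 of the 9 members and 1.3% of all genes higher. Since *Xist* was low in HSC-KO replicate 3 alone, that fit is close to leaving this library out. *Uroc1* was at 478, 694 and 584 CPM in control livers and 856, 914 and 643 CPM in HSC-KO livers. Its groups overlapped, since HSC-KO replicate 3 lay below control replicate 2. Its log2 fold change was 0.46 (SE 0.19, 95% interval 0.01 to 0.91, adjusted p = 0.377), and 0.60 without replicate 3 (adjusted p = 0.160).

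The enzymes of the next steps, *Amdhd1* (imidazolonepropionase) and *Ftcd* (which passes the last one-carbon unit to folate), had log2 fold changes of 0.79 (SE 0.18) and 0.67 (SE 0.15). Their adjusted p values were 0.078 and 0.068. All 4 genes of the pathway were thus positive with an unadjusted p below 0.05, and 0 of 4 were called by edgeR, against 1 by DESeq2. The median of the 4 was 0.73.

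*Etnppl* encodes the phospho-lyase that breaks down phosphoethanolamine. It was at 44.2, 85.4 and 53.1 CPM in control livers and at 242, 256 and 216.0 CPM in HSC-KO livers. All HSC-KO libraries were high, replicate 3 included, and the gap to the control group was wider than the range within either group. The mean rose 3.91-fold, and was 60.9 ± 21.7 CPM without and 238 ± 20.1 CPM with the deletion (SD, n = 3). The log2 fold change was 1.97 (SE 0.25, 95% interval 1.39 to 2.54, edgeR BH-adjusted p = 0.0081). Without HSC-KO replicate 3 the log2 fold change was 2.03 (adjusted p = 0.011). The call was lost without control replicate 3 (log2 fold change 1.89, adjusted p = 0.052) and when the threshold of 1 was itself tested with glmTreat (adjusted p = 0.066). Of 9 genes of ethanolamine and phospholipid metabolism that were tested, *Etnppl* alone was called, and their median log2 fold change was 0.04.

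*Sds* (serine dehydratase, which turns serine into pyruvate and ammonia) and the related *Sdsl* differed in spread. *Sds* was at 89.9, 248 and 212 CPM in control livers and at 471, 562 and 128 CPM in HSC-KO livers. HSC-KO replicates 1 and 2 lay above all controls, and replicate 3 lay among them. The log2 fold change of 1.08 had an SE of 0.56 (95% interval -0.22 to 2.38, edgeR BH-adjusted p = 0.503). Without replicate 3 it was 1.50 (adjusted p = 0.105). *Sdsl* was at 9.93, 15.2 and 12.9 CPM in control livers and at 26.2, 28.7 and 18.6 CPM in HSC-KO livers, with no overlap. Its log2 fold change was 0.95 (SE 0.22, adjusted p = 0.070) with all libraries and 1.11 without replicate 3 (adjusted p = 0.033), where it was called. Among 11 tested genes of serine, glycine and threonine metabolism, *Sds* and *Sdsl* included, none was called by edgeR or DESeq2. Of these, *Sdsl* alone had an unadjusted p below 0.05 and was higher (median log2 fold change of the 11 genes 0.21). Without HSC-KO replicate 3, *Sdsl* and *Agxt* were called (log2 fold change of *Agxt* 1.11, adjusted p = 0.014).

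*Pck1*, the cytosolic enzyme that commits carbon to gluconeogenesis, did not follow the others. It was at 1854, 3976 and 4246 CPM in control livers and at 3004, 3176 and 1113 CPM in HSC-KO livers. The groups overlapped, and the lowest value was again that of HSC-KO replicate 3. The log2 fold change was -0.47 (SE 0.44, 95% interval -1.49 to 0.56, edgeR BH-adjusted p = 0.763), so that a log2 fold change of 1 lay outside the interval. Without replicate 3 it was -0.12 (adjusted p = 0.938). Of 18 tested genes of gluconeogenesis and fasting none was called by edgeR or DESeq2, with 3 at an unadjusted p below 0.05 (1 higher and 2 lower) and a median log2 fold change of -0.11.

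*Hsd17b13*, an enzyme on the surface of lipid droplets, was at 250.4, 230.1 and 215 CPM in control livers and at 506, 394 and 424 CPM in HSC-KO livers. The groups were well separated, and HSC-KO replicate 3 lay between the other HSC-KO libraries. The mean was 1.90-fold higher (log2 fold change 0.93, SE 0.14, 95% interval 0.59 to 1.26, edgeR BH-adjusted p = 0.018), which passed the adjusted p but not the fold threshold. Without replicate 3 it was 0.96 (adjusted p = 0.024). Without control replicate 1, 2 or 3 or HSC-KO replicate 1, the adjusted p was 0.050, 0.080, 0.094 or 0.077. Of 12 tested genes of lipid droplets, *Hsd17b13* included, none was called by edgeR or DESeq2. An unadjusted p below 0.05 was found in 4, *Hsd17b13* itself being the 1 higher and the other 3 being lower. The median of those genes was -0.41.

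*Aldh1b1*, a mitochondrial aldehyde dehydrogenase, was at 84.0, 119.6 and 107 CPM in control livers and at 276, 350 and 129 CPM in HSC-KO livers. HSC-KO replicates 1 and 2 were high, and replicate 3 lay only just above control replicate 2. The log2 fold change was 1.28 (SE 0.34, 95% interval 0.49 to 2.07, edgeR BH-adjusted p = 0.127). Without replicate 3 it was 1.60 with an adjusted p of 0.0078, and the gene was then called, as it was with DESeq2 (adjusted p = 0.0011). Of 15 tested aldehyde dehydrogenase genes, edgeR called *Aldh3a2* alone, and it was lower (log2 fold change -1.90, SE 0.32, adjusted p = 0.026). DESeq2 called *Aldh3a2* lower and *Aldh1b1* higher, and without replicate 3 edgeR called these and *Aldh1a1*, lower (log2 fold change -1.06). The median of the 15 was 0.14.

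*Pigr*, the receptor that carries polymeric IgA across HCs and bile duct cells, was at 1598, 2029 and 1640 CPM in control livers and at 2226, 1789 and 2005 CPM in HSC-KO livers. The groups overlapped. Its log2 fold change of 0.19 (SE 0.15, 95% interval -0.16 to 0.55, edgeR BH-adjusted p = 0.700) was the same to this precision without replicate 3 (adjusted p = 0.725). Of 8 genes of IgA and plasma cells, the source of the cargo, none was called by edgeR and 1 was called lower by DESeq2, with 4 at an unadjusted p below 0.05, all lower. Their median log2 fold change was -1.30, and all 8 were lowest among the HSC-KO libraries in replicate 3 (all genes, 40.4%).

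Per kilobase of exon, *Pck1* was the most abundant member in control livers (979 ± 382 CPM per kb, SD, n = 3), followed by *Pigr* (436 ± 59.2) and *Uroc1* (169 ± 31.1). *Sds* (108 ± 48.9), *Hsd17b13* (108 ± 8.20) and *Hal* (94.8 ± 36.5) followed with overlapping ranges, so their order was not set beyond the spread. The range of *Sds* (53.1 to 146.5) also reached into that of *Uroc1* (137.6 to 199.9). *Aldh1b1* stood at 45.1 ± 7.89, and *Sdsl* (8.49 ± 1.78) and *Etnppl* (7.37 ± 2.62) were lowest and overlapped. In HSC-KO livers *Etnppl* (28.8 ± 2.43) lay above *Sdsl* (16.4 ± 3.52), with no overlap of their libraries. *Pck1* (709 ± 334) and *Pigr* (499 ± 54.3) were still the highest by their means.

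HSC-KO replicate 3, the male liver, was lower than both other HSC-KO libraries in 7 of the 9 members (77.8%), against 40.4% of all genes tested. The gap to the mean of replicates 1 and 2 on the log2 scale was widest for *Sds*, and was -1.47 for *Pck1*, -1.27 for *Aldh1b1* and -0.80 for *Hal*. It was -0.20 for *Etnppl*, -0.08 for *Hsd17b13* and 0.01 for *Pigr*. With 1 male library, sex and any other property of that mouse cannot be told apart. Of 7 tested genes known to be higher in male liver, none was called by edgeR or DESeq2, with 2 higher at an unadjusted p below 0.05 and a median log2 fold change of 3.32, which was -3.40 without that library (3 called lower). Of 8 genes known to be higher in female liver none was called by either tool or had an unadjusted p below 0.05 (median -0.50). None of 13 clock genes, 8 genes of the fed state or 7 glucocorticoid targets was called by either tool, with 1 glucocorticoid target lower at an unadjusted p below 0.05 and medians of -0.04, 0.06 and 0.04. Replicate 3 was the lowest HSC-KO library in 5 of the 7 glucocorticoid targets (median gap -1.62), 3 of the 13 clock genes and 2 of the 8 fed-state genes. It was also lowest in 12 of 18 genes of gluconeogenesis and fasting, 8 of 8 macrophage markers and 7 of 8 T and NK cell markers. The part of these lists in the members' values was not tested. Without HSC-KO replicate 3, *Sdsl*, *Aldh1b1* and *Etnppl* were called, 3 of 9 members against 1.16% of all genes in the higher direction, and the median log2 fold change of the members was 1.11.

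Of 14 other periportal genes, 1, *Cdh1* (E-cadherin), was called higher (log2 fold change 1.51, SE 0.24, edgeR BH-adjusted p = 0.021), against 1.03% of all genes. Without replicate 3, 2 were called higher (all genes, 1.16%), and none was called lower in either fit. In 6 of the 14 the HSC-KO libraries all lay above the controls (all genes, 8.8%). *Cyp2f2* and *Gls2* (liver glutaminase) had log2 fold changes of 1.10 and 1.03 (adjusted p = 0.085 and 0.129), and DESeq2 called 3 of the 14 higher (all genes, 1.91%). Negative log2 fold changes were found in 4 of the 14, among them *Mfsd2a* (-1.92, adjusted p = 0.413) and *G6pc* (-0.89, adjusted p = 0.384), the latter with an unadjusted p of 0.049. The median of the 14 was 0.47. Replicate 3 was the lowest HSC-KO library in 12 of them (all genes, 40.4%).

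On the pericentral side, 10 of 10 genes that the study itself displayed were called lower, with a median log2 fold change of -2.78. The study chose those genes on these libraries, so their count is not independent evidence of the direction. *Glul* (glutamine synthetase) had a log2 fold change of -5.01, *Lgr5* -4.95, *Oat* -3.39 and *Tbx3* -3.05. Without HSC-KO replicate 3, 8 of the 10 were called, and *Cldn2* and *Axin2* were not. Of 16 other pericentral genes, 8 were called lower and none higher, with a median of -1.19. Among them *Slc1a2*, a glutamate transporter, had control and HSC-KO means of 151 ± 15.4 and 0.036 ± 0.062 CPM (SD, n = 3). It passed the filter through the control group alone and so had to differ, as did *Sp5* (log2 fold change -10.07 without HSC-KO replicate 3).

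**Figure D2:**
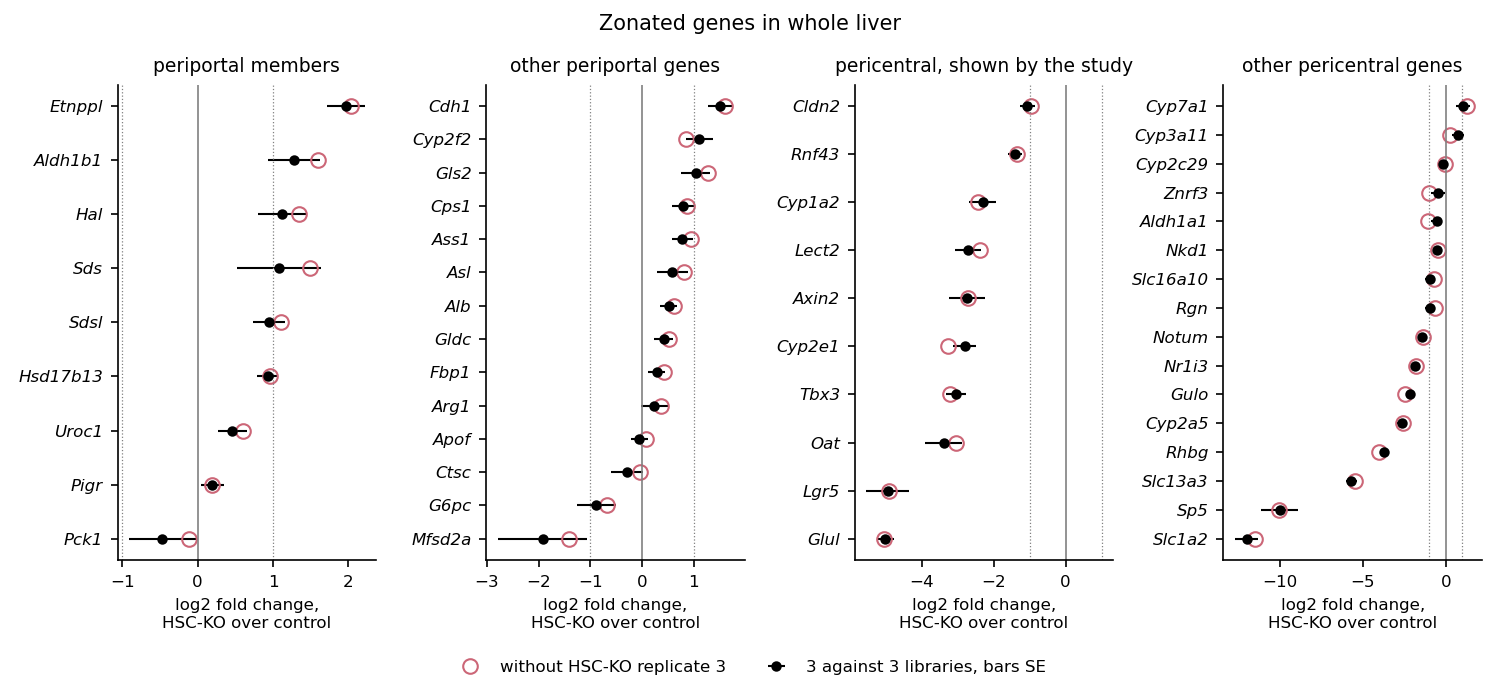
Log2 fold change of HSC-KO over control livers (x axis) for each periportal and pericentral gene, in panels by list. Filled points with bars are the fit of 3 against 3 libraries with its SE, and open circles the fit without HSC-KO replicate 3. Each panel has its own x range, and dotted lines mark -1 and 1. The filled points of all 10 pericentral genes shown by the study lie left of -1, whereas those of 8 of the 9 members lie right of 0. The open circle of *Cldn2* lies at -0.96.

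Averaged over genes, the members' mean log2 CPM was 7.62, 8.33 and 8.04 in control livers and 9.06, 9.06 and 8.30 in HSC-KO livers, a difference of 0.81 between the group means. The values of replicates 1 and 2 were above all controls, and that of HSC-KO replicate 3 lay just below control replicate 2. The 10 pericentral genes differed by -2.98 on the same scale. The balance, periportal minus pericentral, was 0.51, 1.62 and 1.23 in control livers and 5.36, 4.92 and 4.45 in HSC-KO livers. The study chose these 10 pericentral genes on these libraries, so the gap of 3.79 (log2) is not independent evidence. The mean log2 CPM of the 16 other pericentral genes was 6.73, 6.58 and 6.46 in control livers and 4.30, 4.26 and 4.21 in HSC-KO livers. Summed rather than averaged on the log scale, the members, dominated by *Pck1* and *Pigr*, came to 4776, 8152 and 7525 CPM in control livers and 9065, 8688 and 5443 CPM in HSC-KO livers, which overlapped.

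**Figure D3:**
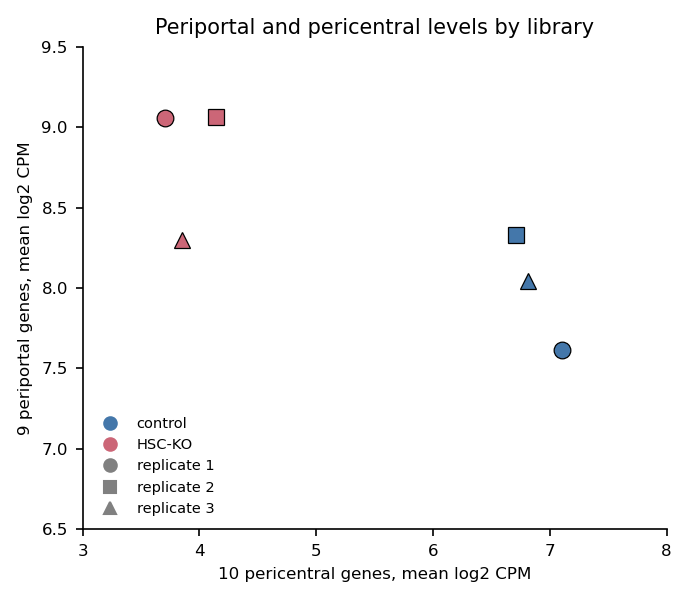
Mean log2 CPM of the 9 periportal genes (y axis) against that of the 10 pericentral genes (x axis) in each of the 6 whole-liver libraries, with color for the group and symbol for the replicate. The groups part along the pericentral axis, and on the periportal axis HSC-KO replicate 3 (8.30) sits level with control replicate 2 (8.33).

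Markers of HCs and of other cells were summed in the same livers. The sum of 10 HC markers was 129402 to 156173 CPM in control livers and 165670 to 215673 CPM in HSC-KO livers, with none of the 10 called and a median log2 fold change of 0.22. On the mean log2 CPM of these markers the groups overlapped (12.53 to 12.64 and 12.59 to 12.78). The 8 macrophage markers, 6 of which were called lower (median -1.23), summed to 296 to 501 CPM in control livers and 69.3 to 100.3 CPM in HSC-KO livers. The 8 cholangiocyte markers, of which 7 were tested and 1 was called lower (median -0.77), summed to 71.8 to 99.8 and 46.1 to 52.9 CPM, and the 10 HSC markers, none called by edgeR, 1 called higher by DESeq2 and 5 higher at an unadjusted p below 0.05 (median 0.57), to 299 to 408 and 559 to 608 CPM. The 8 T and NK cell markers, none called by edgeR or DESeq2 and 2 lower at an unadjusted p below 0.05 (median -0.92), summed to 6.70 to 7.60 and 3.08 to 5.96 CPM. The 8 endothelial markers, with *Stab2* called lower (log2 fold change -3.30) and a median of 0.14, summed to 309 to 388 and 283 to 348 CPM. Their part in the members' values was not tested. Scaling by library size alone moved the median of all genes from -0.01 to -0.12 and left the members' calls at 1.

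The 5 genes whose log2 CPM followed the mean z-score of the members most closely over the 6 liver libraries were *Lrch3* (Pearson r = 0.994), *Gls2* (0.984), *Mllt4* (0.979), *Pgap2* (0.978) and *Ocln* (0.977). Among the members themselves, *Hal* (0.990), *Uroc1* (0.985) and *Sdsl* (0.978) lay closest to that mean and *Pck1* (0.224) farthest. These values describe 6 libraries that include both groups and 1 shared depth scaling, and each member is part of the mean it is set against.

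In sorted cells, the members were read as transcripts carried over from HCs or made at low level. Of the 8 members tested in KCs of HSC-KO mice, *Etnppl* passed the filter through the control group alone and is left out of the counts. Of the other 7, which had at least 10 counts in every library, 3 (*Pck1*, *Uroc1* and *Hal*) were called lower by edgeR over 16337 genes, against 5.34% of all genes. None was called higher by edgeR or DESeq2 (background 6.32%), and 6 had an unadjusted p below 0.05, all lower (background 16.6%). In 5 of the 7 every HSC-KO library lay below every control library, as in 19.6% of all genes. *Hal* and *Aldh1b1* were among them and lay apart the other way in whole liver, as did 1.65% of the genes tested in both.

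*Pck1* was at 20.3, 16.0 and 16.1 CPM in control KCs and at 1.05, 1.05 and 0.340 CPM in HSC-KO KCs. All HSC-KO values were far below the controls (log2 fold change -4.42, SE 0.43, edgeR BH-adjusted p = 0.00055). *Uroc1* was at 6.67, 3.82 and 12.1 CPM against 0.308, 0.440 and 0.449 CPM (log2 fold change -4.23, SE 0.48, adjusted p = 0.0011). *Hal* was at 3.97, 3.27 and 9.02 CPM against 0.262, 0.566 and 0.767 CPM (log2 fold change -3.34, SE 0.56, adjusted p = 0.0057). These 3 members were called in every alternative setting that was run. *Etnppl* had 79, 19 and 95 counts in control KCs and 4, 3 and 0 in HSC-KO KCs, so with the filter passed it had to differ. Its log2 fold change was -5.11 (SE 1.19, adjusted p = 0.022), and the call was lost under glmTreat, with the replicate block, and without control replicate 3, HSC-KO replicate 1 or HSC-KO replicate 2, with adjusted p from 0.059 to 0.083.

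*Aldh1b1* was at 8.96, 11.2 and 18.4 CPM in control KCs and at 7.91, 8.80 and 7.88 CPM in HSC-KO KCs. The groups were separate by a small gap, and the gene was not called (log2 fold change -0.65, SE 0.27, adjusted p = 0.141). *Pigr*, *Sds* and *Hsd17b13* were not called either, with log2 fold changes of -0.88, -1.78 and -0.47. *Sdsl* had at most 11 counts in any KC library and was not tested. Without KC control replicate 1, *Pigr* was called as well (log2 fold change -1.20, adjusted p = 0.018).

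**Figure D4:**
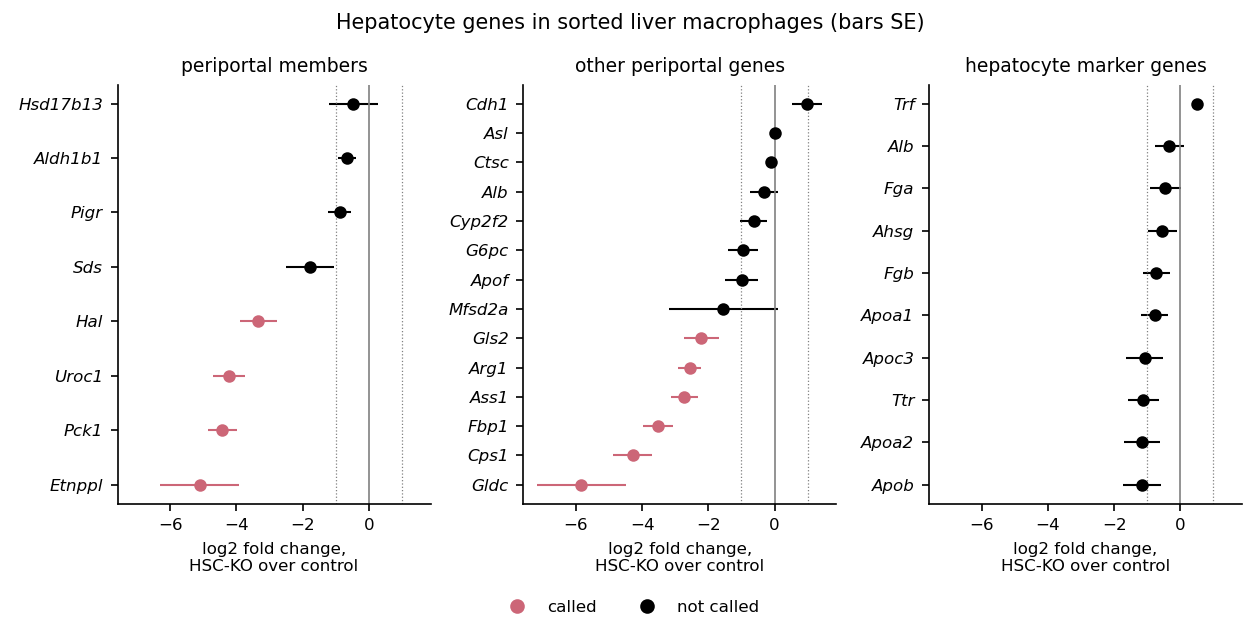
Log2 fold change of HSC-KO over control liver macrophages (x axis, bars SE) for the tested members, other periportal genes and HC marker genes, in panels by list, with called genes in red and dotted lines at -1 and 1. *Pck1*, *Uroc1* and *Hal* lie between -3.34 and -4.42, and the 10 HC markers between -1.16 and 0.52 with none called. *Etnppl*, at -5.11, was tested only through its control counts.

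None of the 10 HC markers was called in KCs by edgeR or DESeq2, and 1, *Trf*, had an unadjusted p below 0.05 and was higher. Their log2 fold changes ran from -1.16 to 0.52 (median -0.75). The difference between members and markers was not tested. Their sum without *Trf* was 0.198 to 0.695% of its whole-liver level in control KCs and 0.233 to 0.372% in HSC-KO KCs, so the groups overlapped. Leaving out *Trf* was chosen after seeing the data, and the order of the groups rests on it. With *Trf* the sum was 2.32 to 2.90% and 2.68 to 3.41%, higher on average in HSC-KO KCs, and without *Alb* but with *Trf* it was 5.82 to 6.69% and 7.59 to 9.89%, higher in every HSC-KO library. *Trf* alone was at 18.3 to 19.7% of its liver level in control KCs and 21.7 to 28.7% in HSC-KO KCs. The median of the 10 markers was 0.346 to 1.47% and 0.434 to 0.788%. Sums with *Trf* therefore mainly reflect that gene, whose source in these libraries was not tested. By the same measure *Pck1* in control KCs was at 0.490% of liver, *Hal* at 0.955%, *Uroc1* at 1.19% and *Etnppl* at 1.43%, and in HSC-KO KCs at 0.035, 0.050, 0.053 and 0.011%. *Aldh1b1* was at 11.5 and 3.47%. Each percent is set against liver of the same genotype, and the liver levels differed. In HSC-KO liver *Aldh1b1* was at 2.43, *Etnppl* at 3.91, *Hal* at 2.18, *Uroc1* at 1.37 and *Pck1* at 0.72 times the control level. Part of the fall in percent of the first 4 therefore comes from the higher liver level.

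Of the other genes of histidine breakdown, *Ftcd* was called lower in KCs (log2 fold change -2.38, edgeR BH-adjusted p = 0.026). *Amdhd1*, with 7, 15 and 7 counts in HSC-KO KCs (log2 fold change -3.88), passed the filter through the control group. Of the 14 other periportal genes, 12 had at least 10 counts in every library, and 5 of these were called lower (background 5.34%), among them *Cps1* (-4.28), *Fbp1* (-3.53) and *Ass1* (-2.72). The 8 endothelial markers also fell in part, with 4 called lower and sums of 513 to 677 CPM in control KCs and 30.0 to 76.7 CPM in HSC-KO KCs. The 8 markers of T and NK cells went the other way, with 6 called higher and sums of 18.0 to 39.4 and 180.1 to 315 CPM. Of the 8 macrophage markers, whose sums are given above, 5 had separate groups, all lower, and *Clec4f*, a marker of resident KCs, was called (log2 fold change -10.30). Their part in the members' values was not tested.

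In ECs, none of the 6 members tested was called by edgeR (background 7.68% higher and 6.01% lower), and 1, *Pck1*, had an unadjusted p below 0.05 and was lower (background 16.4%). *Pck1* was at 0.989, 2.28 and 1.70 CPM in control ECs and at 0.191, 0.195 and 0.856 CPM in HSC-KO ECs. The groups did not overlap, as in 20.2% of all genes in that direction, but HSC-KO replicate 3 lay close to control replicate 1. Its log2 fold change was -1.99 (SE 0.70, adjusted p = 0.088). DESeq2 called it (adjusted p = 0.026), as did edgeR without HSC-KO replicate 3 (log2 fold change -3.09, adjusted p = 0.020). HC markers were lower in part in the same libraries. Of the 10, 9 had a negative log2 fold change (median -0.88), 4 had an unadjusted p below 0.05 and were lower, and *Apob* was called lower (log2 fold change -2.62, adjusted p = 0.039). Their mean log2 CPM was 2.07 to 2.45 in control and 1.05 to 1.89 in HSC-KO ECs, without overlap, while their sum was at 0.069 and 0.057% of its whole-liver level. Macrophage markers summed to 258 to 357 CPM in control and 63.5 to 106.8 CPM in HSC-KO ECs, also without overlap. The part of either list in the value of *Pck1* was not tested.

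In liver macrophages of *Smad4* cKO mice, none of the 9 members was called by edgeR (background 2.76% higher and 2.67% lower). Of the 9, only 6 had at least 10 counts in every library. *Aldh1b1* alone had an unadjusted p below 0.05, being lower (background 10.5%). It was at 6.89, 14.3 and 15.4 CPM in control and at 4.67, 7.01 and 2.51 CPM in *Smad4* cKO macrophages. The groups overlapped in 1 library, cKO replicate 2 lying above control replicate 1. Its log2 fold change was -1.37 (SE 0.43, adjusted p = 0.112), and DESeq2 called it (adjusted p = 0.012). *Uroc1* had 49, 131 and 81 counts in controls and 0, 90 and 0 in *Smad4* cKO macrophages. Without cKO replicate 2 it was called (adjusted p = 0.015), but it then passed the filter through the controls alone, against 0 counts in both remaining cKO libraries, and so had to differ. In the same edgeR fit 7 of the 9 members had an unadjusted p below 0.05, all lower, with log2 fold changes of -2.56 for *Pck1* and -1.93 for *Hal*. Only *Uroc1* was called there. That replicate stood apart, with a mean log2 CPM of the members of 0.58 against -2.19 and -2.47 in the other cKO libraries. HC markers were higher in it too, with a mean log2 CPM of 5.77 against 4.02 and 4.07, as were T and NK cell markers, with a sum of 271 against 107.0 and 66.9 CPM. Their part in the members' values was not tested. *Pck1* was at 0.762, 5.31 and 2.47 CPM in controls and at 0.721, 4.15 and 0.239 CPM in *Smad4* cKO macrophages, so the groups overlapped. Whether the change of these genes differed between HSC-KO and *Smad4* cKO macrophages was not tested.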

How the data were processed

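Reads were aligned by HISAT2 against the mouse build mm10 (GRCm38) and assigned to genes by featureCounts, and the authors deposited the resulting raw counts in 4 tables. Versions, annotation release and strand use are not given in the sources used here. The 24 libraries were grouped by their labels. The study states 3 independent biological replicates per experiment, but 3 mouse numbers occur in both the EC and the KC column names, so the 24 libraries may not be from 24 separate mice. In R 4.3.3 with edgeR 4.0.16, low genes were removed from each table by filterByExpr (at least 10 counts, and 15 in total). TMM factors were applied, and the quasi-likelihood test of edgeR (with limma 3.58.1) compared the groups of each table over its own 6 libraries with no covariate and BH adjustment over all genes. The study used DESeq2, which is an alternative here (version 1.42.0). CPM values are counts over the TMM-scaled library size. The SE is the log2 fold change divided by the square root of F, and intervals are 95% without adjustment. Depth was 60911527 to 110879155 counts per library. A permutation of 3 against 3 libraries could not go below 0.1, so p values came from the fits over all genes. On simulated counts for the liver comparison, 89.5% of 200 changed genes were called and 5 unchanged genes by edgeR. DESeq2 called the same share and 20 unchanged genes. The planted changes all exceeded the threshold of 1 in size, and those of every member but *Etnppl*, and no simulated library stood apart. These shares therefore do not apply to the uncalled members.

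All 9 members are named. Of each other list described in liver, the count called, the median and up to 4 called genes with the largest change are given, with all genes of histidine breakdown, and the 5 genes most like the members above a floor on the mean log2 CPM of 3. *Cyp2f2*, *Gls2*, *Mfsd2a*, *G6pc*, *Agxt* and *Plbd2* were named after their values were seen. The members and lists were chosen with earlier results of these data known. Carry-over is the level, scaled by library size without TMM factors, of a gene or list in a sorted library as a percent of its mean in whole liver of the same genotype (control liver for the *Smad4* groups), without a test. Alternatives were DESeq2, other size factors, library size alone, other filters, glmTreat, each library left out, a replicate block and *Xist* as a covariate. Positions and exon lengths came from GENCODE vM21, promoter windows from RefSeq (GRCm38.p6). Python 3.11.15 with matplotlib 3.10.9 drew the figures.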

Additional observations from a re-analysis of the deposited data

Results flagged for a closer look

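*Hal* and *Aldh1b1* had libraries apart in opposite directions in 2 sample types. They were higher in every HSC-KO liver than in any control liver, and lower in every HSC-KO macrophage library than in any control macrophage library. The same held for 1.65% of the genes tested in both. In macrophages their log2 fold changes were -3.34 and -0.65, and in whole liver 1.12 and 1.28. *Etnppl* had the same order of groups (-5.11 and 1.97), but passed the filter in macrophages through the control group alone, so it had to differ there. The difference between the sample types was not tested.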

How the results depend on the processing

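In whole liver, 1 member was called higher in the fit reported, and the count was 3 with DESeq2 and 0 with glmTreat. With the *Xist* covariate, which chiefly sets HSC-KO replicate 3 apart, the count was 4. With 1 library left out it was 0 to 3. It was 0 without control replicate 3, 2 without HSC-KO replicate 2 (*Hsd17b13* then at a log2 fold change of 1.00) and 3 without HSC-KO replicate 3. No member changed direction in whole liver under any of these settings. In sorted cells, uncalled members did in 1 or more settings: *Hal* and *Hsd17b13* in ECs, *Hsd17b13* in KCs, and *Hal*, *Hsd17b13*, *Pck1* and *Sdsl* in the *Smad4* comparison. Over all genes, 177 were called higher and 248 lower. The counts were 327 and 467 with DESeq2, 222 and 253 with the *Xist* covariate, 56 and 86 with glmTreat, and 77 to 207 and 101 to 244 with 1 library left out. With the replicate block 105 were called higher, and the members called stayed at 1. The replicate numbers share no stated origin, and same-numbered liver libraries correlated at 0.05, 0.15 and 0.03 after removal of the group means. In KCs the block left 3 members called lower. In ECs and in *Smad4* cKO macrophages, 0 members were called, against 1 lower with DESeq2 in each and 0 to 1 with 1 library left out. The cause of these shifts was not tested.

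The summed level of 10 HC markers as a percent of liver, the carry-over measure, depended on the list, and in macrophages chiefly on *Trf*. It was 2.68 and 3.05% in control and HSC-KO KCs, 0.069 and 0.057% in ECs, and 1.05 and 2.91% in *Smad4* control and cKO macrophages. Without *Alb* these were 6.39, 8.69, 0.099, 0.110, 2.46 and 7.46%. Without *Trf*, chosen after seeing the data, they were 0.482, 0.293, 0.058, 0.036, 0.326 and 0.230%. *Trf* itself was at 18.3 to 19.7% in control KCs and 21.7 to 28.7% in HSC-KO KCs. It was at 5.51 to 7.31% in *Smad4* control and 17.1 to 29.2% in cKO macrophages. The macrophage figures that include *Trf* are therefore not a level shared by the 10 markers. The source of *Trf* was not tested. Some members, such as *Sds*, *Sdsl* and *Etnppl*, had few counts in sorted cells, and *Aldh1b1* and *Hsd17b13* had EC libraries with 0 counts. Values of these members there are uncertain.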
